A study of Mus musculus with 16 samples.

Results

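The response of the mouse gastric corpus to adrenalectomy was measured by RNA sequencing in wild-type (WT) animals. The 4 libraries of group WT-A were compared with the 4 of group WT-S, 8 of the 16 libraries of the study. All 8 came from female C57BL/6 mice of 8 weeks, from a 4 mm biopsy at the lesser curvature of the corpus. In WT-A the adrenal glands had been removed, a procedure that the labels link to inflammation of the stomach. The treatment label of WT-S gives spasmolytic polypeptide-expressing metaplasia (SPEM), the appearance of a mucous lineage in injured corpus glands. Whether WT-S mice had a sham operation is not stated, and S serves here only as a group name. The other 8 libraries, TTP-A and TTP-S, came from female mice of the same age with the TTPΔARE allele on a congenic C57BL/6 background. That allele lacks an AU-rich element of the Zfp36 gene, which encodes tristetraprolin, a factor that marks inflammatory transcripts for decay. They entered the fit to share its estimate of the spread, and their A against S difference is given for comparison. The labels do not say that each library is a separate animal, so p-values measure the spread between libraries, which may be technical in part.

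Glucocorticoids are steroid hormones of the adrenal cortex. They bind the glucocorticoid receptor, a transcription factor encoded by Nr3c1 that activates genes through glucocorticoid response elements and restrains many inflammatory genes. Their release follows a daily rhythm and helps to set the clocks of peripheral tissues. Corpus glands hold acid-secreting parietal cells, enzyme-secreting chief cells, mucous neck cells and surface mucous cells. In SPEM, cells at the gland base lose chief cell features and take up mucous neck features.

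The WT libraries held 17453930 to 25849472 counts. All 8 carried corpus transcripts: Atp4a, the catalytic subunit of the parietal proton pump, was at 11255, 13846, 13112 and 13528 CPM (counts scaled to the library total) in WT-S 1 to 4 and at 10313, 9835, 11206 and 14281 CPM in WT-A 1 to 4. Gast, the gastrin gene of the antrum, had at most 4 counts in any of them. The libraries WT-A 3 and WT-A 4 stood apart: the higher the GC content of a transcript, the higher its value there relative to the median library (rho of 0.716 and 0.738 by Spearman's method over 11493 genes, a description, since genes are not independent). In the other libraries the largest absolute rho was 0.302. Log2 differences of WT genes and the counts of each list are therefore given in all 16 libraries and in the 14 that remain without WT-A 3 and WT-A 4. In those 14, WT-A rests on 2 libraries.

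In the contrast of WT-A with WT-S, 2891 of 15385 genes tested (18.8%) had an adjusted p under 0.05 by the edgeR quasi-likelihood test and are referred to as called. Of these, 1508 (9.80%) were higher in WT-A and 1383 (8.99%) lower. Without the GC-shifted pair 1617 genes (10.5%) were called, 743 (4.83%) higher and 874 (5.68%) lower. Both fits called 1149 genes with the same sign (7.47%), 594 higher (3.86%) and 555 lower (3.61%), and none with opposite signs. The median log2 difference of all genes was 0.0094 in 16 libraries and 0.0060 in 14. Differences were mostly small: the called genes had a median log2 of 0.45 where higher and -0.43 where lower, and 303 of them reached an absolute log2 of 1 (221 higher, 82 lower). When the test itself required a log2 beyond 1 in size, the calls were Per1 and Erdr1. The number of calls also moved when each WT library was left out in turn (8 leave-one-out fits): it was 4982 without WT-A 1, 1272 without WT-A 3, 1252 without WT-S 2, 1816 without WT-S 3 and 1634 without WT-S 4, and 612 in a fit of the 8 WT libraries alone.

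The direction of the calls followed GC content, and did so less in 14 libraries. Genes were placed in 10 bins of equal size by transcript GC content. In the bin of lowest GC content (median 39.9%), the median log2 difference from the WT-S mean was -0.055 for WT-A 1 and 2 and -0.80 for WT-A 3 and 4. In the bin of highest GC content (median 59.6%) it was 0.044 and 0.28. With 16 libraries, 24.1% of genes in the lowest bin were called lower and 0.783% higher, while in the highest bin 0.696% were called lower and 24.6% higher. With 14 libraries these shares were 8.78%, 1.48%, 4.26% and 7.13%.

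**Figure D1:**
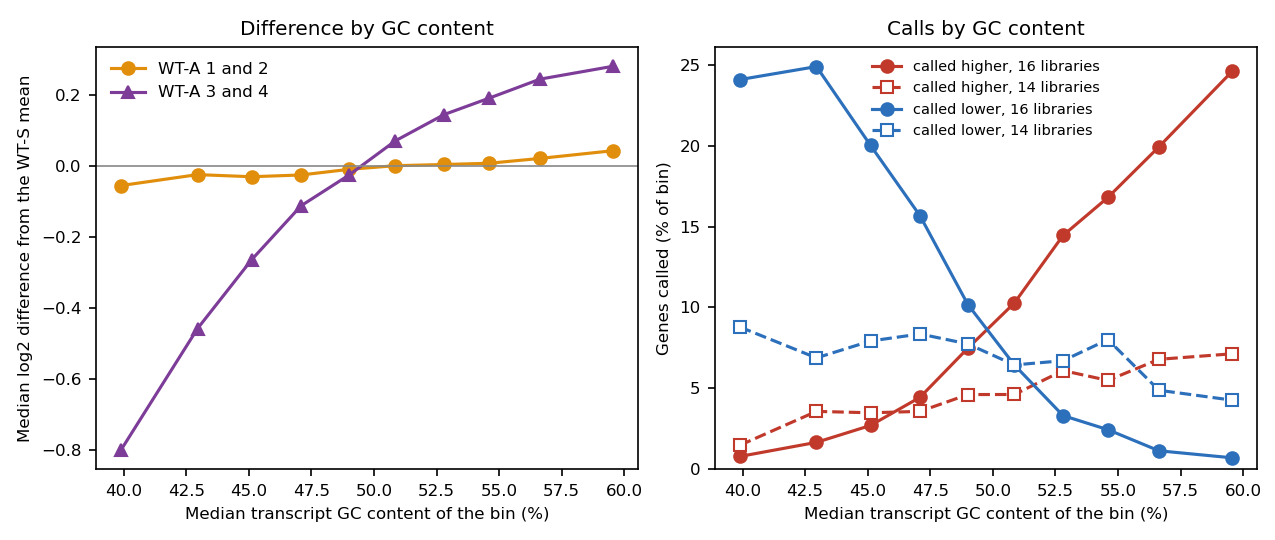
Left, median log2 difference from the WT-S mean (y axis) against the median transcript GC content in percent (x axis) for 10 bins of genes, for WT-A 1 and 2 (circles) and WT-A 3 and 4 (triangles). Right, the percent of each bin called higher (red) or lower (blue) in 16 libraries (filled) and without WT-A 3 and 4 (open). WT-A 3 and 4 run from -0.80 to 0.28, WT-A 1 and 2 from -0.055 to 0.044, and the opposing slopes of the calls are much flatter in 14 libraries.

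Of 18 genes known to be induced by glucocorticoids, 7 were called lower in WT-A, among them Per1, Sgk1, Tsc22d3, Klf9 and Fkbp5. The shares of all genes tested that were called lower and higher were 8.99% and 9.80%. A percentage in brackets after the count of a list is this share of all genes called in the same direction, for the same libraries. The gene with the smallest p in the whole comparison was Per1, a clock repressor that the glucocorticoid receptor also activates directly, on chr11 (GRCm38 chr11:69095108-69109965). Promoters of Sgk1 and Per1 are shown because they fell most in this list and hold a response element of the pathway or the clock. Those of Bhlhe41 and Ciart are shown because both are clock genes that fell and also hold the element of the clock. The windows are from RefSeq (GRCm38.p6), 250 bases before to 50 after a transcript start, 5′ to 3′ on the strand of the gene. Capitals mark, in Sgk1, the full glucocorticoid response element, AGAACA and TGTTCT around any 3 bases (starting at base -189 from the start site) and, in the others, the E-box CACGTG, the binding sequence of the clock activators (at -166 in Per1, -153 in Bhlhe41, and at -116, -58 and -44 in Ciart).
Sgk1, chr10:21993640-21993939, plus strand: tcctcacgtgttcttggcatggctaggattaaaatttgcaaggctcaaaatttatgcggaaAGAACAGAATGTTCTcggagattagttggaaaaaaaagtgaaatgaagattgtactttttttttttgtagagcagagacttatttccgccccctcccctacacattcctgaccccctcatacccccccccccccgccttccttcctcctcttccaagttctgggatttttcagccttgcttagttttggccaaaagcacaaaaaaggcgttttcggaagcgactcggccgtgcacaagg
Per1, chr11:69098699-69098998, plus strand: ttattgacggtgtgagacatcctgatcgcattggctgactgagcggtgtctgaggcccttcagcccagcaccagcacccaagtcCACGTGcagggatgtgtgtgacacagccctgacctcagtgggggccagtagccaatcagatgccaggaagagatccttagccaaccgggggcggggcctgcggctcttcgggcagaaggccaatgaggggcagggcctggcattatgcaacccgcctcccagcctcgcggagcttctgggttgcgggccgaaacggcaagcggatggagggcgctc
Bhlhe41, chr6:145865371-145865670, minus strand: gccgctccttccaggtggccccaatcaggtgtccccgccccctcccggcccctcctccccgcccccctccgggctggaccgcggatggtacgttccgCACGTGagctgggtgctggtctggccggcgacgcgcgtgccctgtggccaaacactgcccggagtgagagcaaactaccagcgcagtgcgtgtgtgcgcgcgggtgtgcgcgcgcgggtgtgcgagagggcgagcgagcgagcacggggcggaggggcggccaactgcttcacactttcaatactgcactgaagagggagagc
Ciart, chr3:95882179-95882478, minus strand: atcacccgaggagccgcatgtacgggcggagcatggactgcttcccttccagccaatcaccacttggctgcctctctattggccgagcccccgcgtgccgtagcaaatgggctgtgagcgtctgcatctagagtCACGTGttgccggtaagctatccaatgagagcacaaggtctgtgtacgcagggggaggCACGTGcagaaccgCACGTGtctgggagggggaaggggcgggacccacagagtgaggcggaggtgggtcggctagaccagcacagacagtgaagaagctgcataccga

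The full element, searched on both strands, was found in windows of 3 of 27025 genes (0.0111%), and Sgk1 was 1 of them. Of the 18 genes of the glucocorticoid-induced list, 15 had a window, and 3 of these (20%: Glul, Mt1 and Sgk1) held the core ACANNNTGT, against 7.90% of all genes. The E-box was in 4 of the 15 (Per1, Sgk1, Dusp1 and Fkbp5) and in 5 of 16 clock genes with a window (31.2%: Per1, Bhlhe41, Ciart, Cry1 and Tef), against 8.09% of all genes. It was not found for Hlf, Dbp, Rora, Nr1d2 and Per3, clock genes also called lower in WT-A, while Cry1 was not called. The shares are per gene, and the genes of the lists had more windows each: 25 for the 15 and 21 for the 16, against 32851 for all 27025. Per window the core was in 16% of the glucocorticoid-induced list against 6.85% of all, and the E-box in 28.6% of the clock list against 7.15%. The core lies inside the full element, so the Sgk1 match counts under both. Clock genes held no core match, which says only that these letters are not in these windows.

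Per1 was at 78.1, 101, 94.5 and 111 CPM in WT-S 1 to 4 and at 28.5, 25.5, 35 and 30.4 CPM in WT-A 1 to 4. All WT-A libraries lay below all WT-S libraries, as they did for 8.48% of all genes tested, and the mean fell 3.22-fold (log2 -1.69, SE 0.12, adjusted p = 6.05e-06; 14 libraries -1.83, adjusted p = 8.42e-05). Sgk1, a kinase that promotes sodium uptake, was at 216, 376, 249.6 and 291 CPM in WT-S and 104, 97.3, 106 and 126 CPM in WT-A, again with WT-A lower throughout (log2 -1.38, SE 0.24, adjusted p = 0.00272; 14 libraries -1.49, adjusted p = 0.0106). Tsc22d3, which encodes the anti-inflammatory protein GILZ, varied little within groups: 80.9, 85.9, 78 and 82.8 CPM in WT-S and 48.1, 46.1, 43.6 and 45.6 CPM in WT-A (log2 -0.84, SE 0.089, adjusted p = 0.000215; without the pair -0.80, adjusted p = 0.00199). In all 3 genes the GC-shifted libraries lay within or close to the values of WT-A 1 and 2.

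Klf9, a transcription factor that mediates part of the steroid response, was at 53.5, 68.9, 56 and 59.4 CPM in WT-S and 40.9, 43, 36.9 and 33.4 CPM in WT-A (log2 -0.62, SE 0.10, adjusted p = 0.00188; 14 libraries -0.50, adjusted p = 0.012). Fkbp5, the receptor's co-chaperone and feedback inhibitor, was at 63, 82.7, 51.8 and 52.8 CPM and 38.6, 34.9, 41.1 and 37 CPM (log2 -0.72, SE 0.17, adjusted p = 0.0105; 14 libraries -0.77, adjusted p = 0.0406). WT-S 2 was the high library of Fkbp5, yet the groups did not overlap. Zbtb16, a zinc-finger repressor, was at 9.91, 13, 8.05 and 6.81 CPM and 4.11, 3.48, 5.34 and 3.78 CPM (log2 -1.18, SE 0.30, adjusted p = 0.0171). Its call was just lost in 14 libraries (-1.31, adjusted p = 0.051), and also without WT-S 2 (adjusted p = 0.0656).

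Not every gene of the list fell. Of 18 members tested, 7 were called lower (8.99% of all genes tested) and 2 higher (9.80%), and 9 were not called. In 14 libraries 6 were called lower (5.68%) and 2 higher (4.83%), and the medians were -0.10 and -0.071, near the median of all genes. Members with a log2 close to 0 were Ddit4 (0.056, adjusted p = 0.844; 14 libraries 0.18, adjusted p = 0.637), Errfi1 (0.024, adjusted p = 0.902; 14 libraries 0.26, adjusted p = 0.0835) and Glul (-0.048, adjusted p = 0.70; 14 libraries 0.057, adjusted p = 0.736). The 2 that rose were the metallothioneins, small proteins that bind zinc and copper: Mt1 went from 217 ± 9.52 to 346 ± 52.5 CPM and Mt2 from 65.5 ± 6.44 to 112 ± 6.73 CPM (SD, n = 4; log2 0.68, SE 0.18, adjusted p = 0.020 and 0.77, SE 0.20, adjusted p = 0.018; 14 libraries 0.83, adjusted p = 0.0248 and 0.82, adjusted p = 0.0486). In neither did the groups overlap. Pdk4, a kinase that restrains glucose oxidation, was called lower (log2 -0.51, adjusted p = 0.0357) but not in 14 libraries (-0.27, adjusted p = 0.289), with offsets for GC content or in 5 of 8 leave-one-out fits (adjusted p up to 0.109, without WT-S 4). Mt1 lost its call without WT-S 2 (adjusted p = 0.0593), and Mt2 lost it in 2 of 8 leave-one-out fits (adjusted p up to 0.0573, without WT-S 2). Zfp36 itself, also a glucocorticoid target, was at 65.8, 55.1, 63.1 and 64 CPM in WT-S and 63.2, 63.7, 72.5 and 88.6 CPM in WT-A, which overlapped (log2 0.22, SE 0.097, adjusted p = 0.121; 14 libraries 0.037, adjusted p = 0.809).

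Among receptors and local enzymes of steroid metabolism, Hsd11b2 had the smallest p. Of 8 genes of this list tested, 2 were called higher (9.80% of all genes) and 2 lower (8.99%), and in 14 libraries 2 (4.83%) and none (5.68%). This enzyme inactivates glucocorticoids and so shields the mineralocorticoid receptor. It was at 2.41, 1.61, 2.07 and 1.89 CPM in WT-S and 3.68, 4.79, 4.37 and 3.61 CPM in WT-A, a 2.07-fold rise with all WT-A above all WT-S libraries, as in 9.20% of all genes tested (log2 1.05, SE 0.15, adjusted p = 0.0013; 14 libraries 1.09, adjusted p = 0.00397). H6pd, which supplies the cofactor for the opposite, activating reaction in the endoplasmic reticulum, rose by a smaller amount (log2 0.41, SE 0.091, adjusted p = 0.00896; 14 libraries 0.40, adjusted p = 0.0295), a call that was lost with offsets for GC content. Nr3c1, the glucocorticoid receptor, was at 70.9, 78.5, 79.1 and 79 CPM in WT-S and 71.7, 68.5, 52.9 and 50.4 CPM in WT-A. WT-A 3 and 4 were lowest, and WT-A 2 lay just below WT-S. The transcript has a low GC content (42.2%). The call of Nr3c1 (log2 -0.34, adjusted p = 0.0286) was absent in 14 libraries (-0.13, adjusted p = 0.241), with offsets for GC content and in 5 of 8 leave-one-out fits (adjusted p up to 0.0947, without WT-A 3). The mineralocorticoid receptor gene Nr3c2 had a log2 of -0.40, adjusted p = 0.0398, against -0.47, adjusted p = 0.0644 in 14 libraries, and lost its call with those offsets and in 6 of 8 leave-one-out fits (adjusted p up to 0.138, without WT-S 4), where its log2 was -0.26.

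Of 19 clock genes tested, 9 were called lower (8.99% of all genes tested) and 1 higher (9.80%), and in 14 libraries 8 were called lower (5.68%) and none higher (4.83%), with medians of -0.32 and -0.35. The list includes Per1. Bhlhe41, a repressor of the clock loop, was at 12, 20.5, 19.2 and 17.3 CPM in WT-S and 7.98, 9.0, 7.92 and 6.09 CPM in WT-A (log2 -1.15, SE 0.15, adjusted p = 0.000603; 14 libraries -1.02, adjusted p = 0.00339). Ciart, another repressor, was at 10.7, 10.9, 13.5 and 11.2 CPM and 4.58, 5.24, 6.59 and 5.74 CPM (log2 -1.06, SE 0.17, adjusted p = 0.00206; 14 libraries -1.23, adjusted p = 0.0048). Their means fell 2.23-fold and 2.09-fold with no overlap between groups.

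The 3 activators of the PAR bZIP family, which carry the clock's rhythm to metabolic genes, each fell. Hlf went from 27.6 ± 3.13 to 14.7 ± 1.97 CPM (log2 -0.91, SE 0.12, adjusted p = 0.000603; 14 libraries -0.83, adjusted p = 0.00322), Dbp from 95.2 ± 18.2 to 60.6 ± 4.79 CPM (log2 -0.65, SE 0.13, adjusted p = 0.00595; 14 libraries -0.73, adjusted p = 0.0158) and Tef from 140.0 ± 11.5 to 104 ± 6.28 CPM (log2 -0.43, SE 0.083, adjusted p = 0.0044; 14 libraries -0.49, adjusted p = 0.00896), each as mean ± SD of 4 libraries. Their antagonist Nfil3 was higher, at 4.76, 4.37, 3.48 and 4.71 CPM in WT-S and 6.71, 7.0, 8.5 and 10.5 CPM in WT-A (log2 0.92, SE 0.20, adjusted p = 0.00781) but not called in 14 libraries (0.67, adjusted p = 0.0625). Members of the clock loop were called in part. Per3, a further period repressor, was called lower in both fits (log2 -0.48, adjusted p = 0.0216; 14 libraries -0.60, adjusted p = 0.027), with overlapping groups and a call lost in 4 of 8 leave-one-out fits (adjusted p up to 0.0628, without WT-S 4). Rora, a nuclear receptor that activates Arntl, was lower without overlap (log2 -0.61, adjusted p = 0.0102) but was called neither in 14 libraries (-0.35, adjusted p = 0.0766) nor with offsets for GC content. Arntl, which encodes the activator BMAL1, was higher in all WT-A than in all WT-S libraries but was not called (log2 0.39, adjusted p = 0.0975; 14 libraries 0.41, adjusted p = 0.203). Clock, Cry1 and Nr1d1 overlapped and were not called: Clock, the partner of BMAL1, had a log2 of -0.26, adjusted p = 0.132 (14 libraries 0.020, adjusted p = 0.858), the repressor gene Cry1 -0.12, adjusted p = 0.551 (-0.31, adjusted p = 0.188) and Nr1d1, the repressor REV-ERB alpha, -0.16, adjusted p = 0.345 (-0.34, adjusted p = 0.105). Nr1d2, a repressor related to Nr1d1, was low above all in the GC-shifted pair (90.5, 83.1, 42.9 and 45.1 CPM in WT-A 1 to 4, against 101, 122, 118 and 120.0 CPM in WT-S), and its log2 was -0.82, adjusted p = 0.0103 in 16 libraries and -0.41, adjusted p = 0.0158 in 14.

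**Figure D2:**
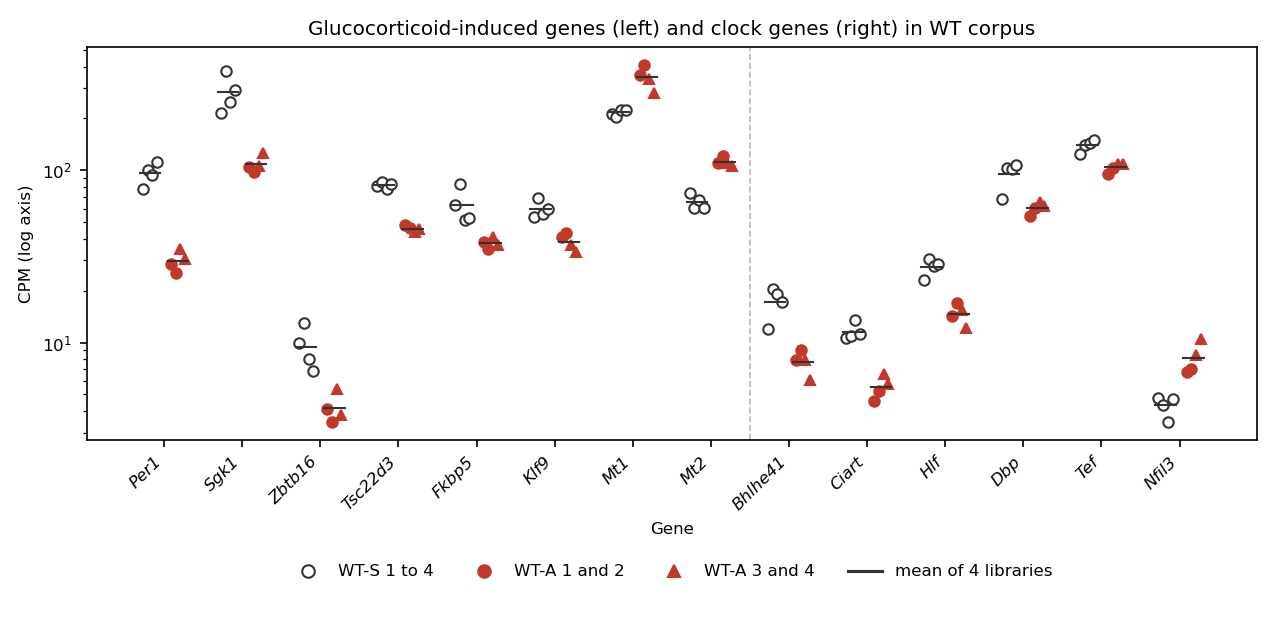
CPM on a log axis (y) of 8 glucocorticoid-induced genes, left of the dashed line, and 6 clock genes, right of it (x). Open circles are WT-S 1 to 4, filled circles WT-A 1 and 2, triangles WT-A 3 and 4, and bars the mean of 4 libraries. The groups do not overlap in any of the 14 genes, with WT-A lower in all but Mt1, Mt2 and Nfil3.

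Secretory cell genes of the corpus fell in part. In a bulk biopsy, fewer cells of a type and less RNA per cell cannot be told apart. Of 7 chief cell genes tested, 3 were called lower (8.99% of all genes tested) and 1 higher (9.80%), and in 14 libraries 4 (5.68%) and 1 (4.83%), with medians of -0.28 and -0.58. The median of all 16 was -0.46 without WT-A 4 and -0.18 without WT-S 2. Chia1, an acidic chitinase and a major chief cell product, was at 2252, 4855, 2616 and 3410.4 CPM in WT-S and 1395, 699, 1100.1 and 1005 CPM in WT-A, 3.13-fold lower without overlap (log2 -1.65, SE 0.25, adjusted p = 0.00147; 14 libraries -1.64, adjusted p = 0.00937). Gif, which encodes intrinsic factor, was at 3080.2, 3714, 3633 and 3881 CPM and 1810.0, 1764, 2218 and 3164 CPM, with WT-A 4 above the lowest WT-S library (log2 -0.68, SE 0.16, adjusted p = 0.0107; 14 libraries -1.0, adjusted p = 0.00125).

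Pgc, the pepsinogen C gene, was at 73110.0, 144710.0, 124342 and 118996 CPM in WT-S and 51562, 46389, 63478 and 99333 CPM in WT-A. WT-S 1 and WT-A 4 overlapped, and the call (log2 -0.82, SE 0.22, adjusted p = 0.0219) was lost in 4 of 8 leave-one-out fits (adjusted p up to 0.0767, without WT-S 2), while in 14 libraries the log2 was -1.23, adjusted p = 0.00539. Pga5, another pepsinogen gene, went the other way and rose from 77.8 ± 13.1 to 132 ± 21.8 CPM without overlap (SD, n = 4; log2 0.76, SE 0.13, adjusted p = 0.00272; 14 libraries 0.57, adjusted p = 0.018). Its reads may be shared with similar pepsinogen genes. Bhlha15, the transcription factor MIST1 of mature chief cells, had a log2 of -0.28, adjusted p = 0.219 in 16 libraries and was called lower in 14 (-0.58, adjusted p = 0.0235).

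Of 15 parietal cell genes tested, 7 were called lower (8.99% of all genes) and none higher, and in 14 libraries 10 (5.68%) and none, with medians of -0.29 and -0.38, and -0.46 without WT-A 4. Esrrg, a nuclear receptor of the parietal cell's energy supply, was at 340.2, 374, 341 and 382 CPM in WT-S and 285, 271, 195 and 247 CPM in WT-A (log2 -0.53, SE 0.093, adjusted p = 0.00305; 14 libraries -0.37, adjusted p = 0.00776). Kcne2, the potassium channel subunit that acid secretion needs, went from 225 ± 14.5 to 164 ± 22.3 CPM (SD, n = 4; log2 -0.45, SE 0.096, adjusted p = 0.00681; 14 libraries -0.44, adjusted p = 0.0104). The water channel gene Aqp4 had a log2 of -0.96, adjusted p = 0.00979 (-1.11, adjusted p = 0.0133 in 14 libraries), a call lost with offsets for GC content. Slc26a7, an anion exchanger of low GC content (38%), had -0.91, adjusted p = 0.00748 and was called neither in 14 libraries (-0.77, adjusted p = 0.0533) nor with those offsets. The histamine receptor gene Hrh2 fell by little (log2 -0.29, adjusted p = 0.0152; 14 libraries -0.38, adjusted p = 0.0107), with a lost call without WT-S 2 (adjusted p = 0.0589).

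The proton pump genes depended on the pair. Atp4b, the beta subunit, was at 5577, 6429.9, 6086 and 6062 CPM in WT-S and 4146, 4163, 4888 and 6949 CPM in WT-A. Its log2 was -0.26, adjusted p = 0.16 in 16 libraries and -0.54, adjusted p = 0.00395 in 14. WT-A 4 lay above every WT-S library and WT-A 1 to 3 below. Atp4a had -0.18, adjusted p = 0.215 and -0.36, adjusted p = 0.0259.

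Of 11 surface mucous genes tested, 2 were called lower (Dpcr1 and Capn8; 8.99% of all genes) and 1 higher (Krt20; 9.80%), and in 14 libraries 4 (5.68%) and none, with medians of -0.31 and -0.46. The share called higher was near that of all genes. Dpcr1, a mucin-like gene, varied little within groups, at 15354, 15277, 15327 and 16110.3 CPM in WT-S and 10393, 10233, 10358 and 11053 CPM in WT-A (log2 -0.56, SE 0.12, adjusted p = 0.00748; 14 libraries -0.59, adjusted p = 0.0306). Muc5ac, the surface mucin, overlapped between groups (log2 -0.55, adjusted p = 0.0859; 14 libraries -0.67, adjusted p = 0.145). Capn8 and Krt20 had -0.31, adjusted p = 0.0327 and 0.56, adjusted p = 0.0396 (14 libraries -0.41, adjusted p = 0.0271 and 0.57, adjusted p = 0.112), and each lost its call in 6 of 8 leave-one-out fits (highest adjusted p = 0.0884 without WT-S 4 and 0.115 without WT-S 2).

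Of 8 endocrine genes tested, 2 were called lower (8.99% of all genes) and none higher, and in 14 libraries 4 (5.68%) and none, with medians of -0.27 and -0.46. When 1 library was left out the median was -0.022 without WT-S 2, -0.15 without WT-A 1 or WT-A 2 and -0.46 without WT-A 4. The 2 called in 14 libraries only were the chromogranin genes Chga (log2 -0.53, adjusted p = 0.0882; 14 libraries -0.97, adjusted p = 0.00928) and Chgb (-0.52, adjusted p = 0.308; -1.19, adjusted p = 0.0423). Slc18a2, the vesicular monoamine transporter of histamine-secreting cells, went from 31.2 ± 5.36 to 19.1 ± 2.47 CPM without overlap (SD, n = 4; log2 -0.71, SE 0.12, adjusted p = 0.00272; 14 libraries -0.62, adjusted p = 0.0133). Hdc, the histamine-forming enzyme, was at 57.8, 76.8, 50.3 and 46.2 CPM in WT-S and 19.4, 19.7, 31.7 and 54.5 CPM in WT-A. WT-A 4 lay within WT-S. The log2 was -0.89, adjusted p = 0.0492 in 16 libraries, a call that was lost with offsets for GC content and in 7 of 8 leave-one-out fits (adjusted p up to 0.152, without WT-S 2), and -1.56, adjusted p = 0.00485 in 14. Of 7 tuft cell genes 2 were called higher, against 9.80% of all genes, and none in 14 libraries. Pou2f3 had 0.67, adjusted p = 0.0333 (14 libraries 0.77, adjusted p = 0.0611) and Alox5ap 0.72, adjusted p = 0.0358 (0.70, adjusted p = 0.0873), and they lost their calls in 5 and 4 of 8 leave-one-out fits, Alox5ap also with offsets for GC content. Their largest adjusted p-values were 0.099 (Pou2f3, WT-S 2 left out) and 0.119 (Alox5ap, WT-A 3 left out). Of 10 genes of EGF receptor ligands and receptors 1 was called lower (8.99% of all genes) and 1 higher (9.80%), near the shares of all genes, and in 14 libraries 1 (5.68%) and none. Egf was lower (log2 -0.71, SE 0.18, adjusted p = 0.0165; 14 libraries -0.90, adjusted p = 0.0164; adjusted p = 0.0578 without WT-S 4). Erbb2 was called higher by a log2 of only 0.19, adjusted p = 0.037, not in 14 libraries (0.13, adjusted p = 0.22), and lost the call with offsets for GC content and in 6 of 8 leave-one-out fits (adjusted p up to 0.115, without WT-S 2).

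Of 14 mucous neck and SPEM genes tested, 6 were called higher (9.80% of all genes) and none lower, and in 14 libraries also 6 (4.83%) and none, with 5 called in both. The medians were 0.68 and 0.64. Gpx2, a glutathione peroxidase of the gastrointestinal epithelium, was at 184, 87, 143 and 93.8 CPM in WT-S and 351, 257, 295 and 305 CPM in WT-A (log2 1.25, SE 0.20, adjusted p = 0.00179; 14 libraries 1.26, adjusted p = 0.00688). Dmbt1, a secreted scavenger-receptor protein of mucosal defence, was at 109, 116, 157 and 137 CPM and 455, 370.0, 306 and 234 CPM (log2 1.39, SE 0.23, adjusted p = 0.00226; 14 libraries 1.67, adjusted p = 0.00217). In both genes every WT-A library lay above every WT-S library.

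Sox9, a transcription factor of progenitors and mucous neck cells, rose less (log2 0.44, SE 0.092, adjusted p = 0.00621; 14 libraries 0.51, adjusted p = 0.00841), as did clusterin, Clu (log2 0.43, adjusted p = 0.0177; 14 libraries 0.53, adjusted p = 0.0213; adjusted p = 0.0608 without WT-S 2, and lost with offsets for GC content). Cd44, a hyaluronan receptor, was at 23.6, 14.1, 16.8 and 14.8 CPM in WT-S and 28.4, 42.4, 25.3 and 21.1 CPM in WT-A. WT-A 2 was high, the groups overlapped, and the call (log2 0.76, adjusted p = 0.0224; 14 libraries 1.04, adjusted p = 0.00937) was lost in 4 of 8 leave-one-out fits (adjusted p up to 0.0742, without WT-S 2).

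Muc6, the mucin of neck cells, was at 2358, 464, 544 and 779 CPM in WT-S and 1560.2, 1902, 1741 and 1682 CPM in WT-A. WT-S 1 stood above all WT-A libraries and the other 3 WT-S libraries below all of them, and the difference was not called (log2 0.73, SE 0.48, adjusted p = 0.278; 14 libraries 0.74, adjusted p = 0.463). Tff2, the spasmolytic polypeptide that gives SPEM its name, had a log2 of -0.060, adjusted p = 0.817 (14 libraries -0.34, adjusted p = 0.213). WT-S 1 was also the highest WT-S library for Gpx2, Slc9a3, Anxa8, Npy4r, Duox2 and Mcpt1.

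The genes with the widest differences, by the naming rule, were of several kinds. To enter, a gene had to be called in both fits, to reach a mean of 5 CPM in the higher group and to show no overlap of CPM between the groups, which held for 17.7% of all genes tested. This left 393 higher and 415 lower genes, and those among the 12 of largest log2 in each direction are described. Because the rule chose them by size and by lack of overlap, their values are a description.

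Among the higher genes, Ccl24 and Alox15 belong to type 2 immunity. Ccl24, a chemokine that attracts eosinophils, was at 0.952, 0.0848, 0.44 and 0.256 CPM in WT-S and 4.62, 4.1, 8.54 and 2.87 CPM in WT-A (log2 3.58, SE 0.54, adjusted p = 0.00147; 14 libraries 3.38, adjusted p = 0.00376; 4.25 without WT-S 1). Alox15, a lipoxygenase of alternatively activated macrophages and eosinophils, was at 1.57, 0.551, 1.06 and 1.43 CPM and 7.61, 11.2, 8.04 and 2.3 CPM (log2 2.69, SE 0.51, adjusted p = 0.00406; 14 libraries 3.06, adjusted p = 0.00285).

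Ltf, the iron-binding antimicrobial protein lactoferrin, had the largest rise (chr9:111019292-111042766), at 0.112, 0.212, 0.22 and 1.33 CPM in WT-S and 8.63, 46.6, 16.7 and 2.83 CPM in WT-A (log2 5.34, SE 1.05, adjusted p = 0.00479; 14 libraries 5.9, adjusted p = 0.00397; leaving out WT-A 2 gave 4.34 and leaving out WT-S 4 gave 6.61). Krt6b, a keratin of stressed squamous epithelium, was at 0.056, 0.0424, 0.352 and 0.87 CPM and 1.62, 28.3, 6.48 and 0.913 CPM (log2 4.83, SE 1.37, adjusted p = 0.0254; 14 libraries 5.5, adjusted p = 0.0207; leaving out the same libraries gave 3.19 and 5.87) and lost its call in 3 of 8 leave-one-out fits (adjusted p up to 0.0784, without WT-S 2). Krt78, a further keratin, was at 19.4, 7.25, 21.3 and 13.4 CPM and 57.3, 85.8, 59.3 and 23.1 CPM (log2 1.89, SE 0.37, adjusted p = 0.00478; 14 libraries 2.23, adjusted p = 0.0026). All 3 were highest in WT-A 2 and lowest, within WT-A, in WT-A 4.

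Squamous epithelium, which lines the forestomach next to the corpus, was measured beside them. Of its 15 genes tested, 2 were called higher (Krt6a and Krt6b; 9.80% of all genes) and none lower, and in 14 libraries 5 (4.83%) and none, with medians of 2.74 and 3.27. The median of all 16 was 1.59 without WT-A 2 and 4.73 without WT-S 3. Krt6a, a close paralog of Krt6b, had a log2 of 4.19, adjusted p = 0.0241 (14 libraries 4.83, adjusted p = 0.017). Leaving out WT-A 2 gave 2.96 and leaving out WT-S 4 gave 5.66, and the gene lost its call in 3 of 8 leave-one-out fits (adjusted p up to 0.0726, without WT-S 2). The list summed to 64.4 to 356 CPM in WT-S and to 155, 1427, 787 and 177 CPM in WT-A 1 to 4. Krt5, a defining keratin of its basal layer, was at 0.056, 0.17, 13 and 9.01 CPM in WT-S and 9.74, 209, 56.9 and 5.3 CPM in WT-A and was not called (log2 3.64, adjusted p = 0.0666; 14 libraries 4.28, adjusted p = 0.0552). WT-A 2 and then WT-A 3 had the most squamous RNA. Ltf, Krt6b, Krt78 and Il1rn were also highest in WT-A 2 and then WT-A 3, although WT-A 1 and WT-A 3 were close for Krt78. The part of squamous tissue in these 4 results was not tested.

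Of the other higher genes, Slc9a3, the apical sodium-proton exchanger, was at 20.1, 2.04, 6.07 and 2.61 CPM in WT-S and 82.5, 59.6, 66.4 and 132 CPM in WT-A (log2 3.5, SE 0.67, adjusted p = 0.00414; 14 libraries 3.25, adjusted p = 0.0127). Spp1, the secreted matrix protein osteopontin, was at 43.2, 74.9, 51.5 and 63.6 CPM and 307, 299, 144 and 102 CPM (log2 1.87, SE 0.37, adjusted p = 0.0049; 14 libraries 2.38, adjusted p = 0.00168), with the GC-shifted libraries at the lower end. Timp1, an inhibitor of matrix metalloproteinases, was at 1.9, 1.78, 1.89 and 0.973 CPM and 5.41, 7.49, 7.8 and 4.39 CPM (log2 1.93, SE 0.31, adjusted p = 0.00188; 14 libraries 1.97, adjusted p = 0.00457). Anxa8, an annexin, was at 15.8, 1.15, 3.74 and 3.74 CPM and 41, 35.9, 32.6 and 20.7 CPM (log2 2.45, SE 0.62, adjusted p = 0.0155; 14 libraries 2.7, adjusted p = 0.0247). WT-S 1 was the high library of WT-S for Slc9a3, Anxa8 and Npy4r, and without it their log2 was 4.56, 3.51 and 2.61. Anxa8, Npy4r and Krt6b were not called in the 8 WT libraries alone, nor was Tmem267 of the lower genes. Npy4r, a receptor for pancreatic polypeptide, had 2.0, adjusted p = 0.017 (14 libraries 2.26, adjusted p = 0.024) and Car12, a membrane carbonic anhydrase, 1.89, adjusted p = 0.0178 (14 libraries 2.33, adjusted p = 0.0111). Npy4r and Car12 each lost the call in 2 of 8 leave-one-out fits, with an adjusted p of up to 0.0579 and 0.0578 without WT-S 2. Anxa8 and Npy4r lie near each other (chr14:34085979-34100571 and chr14:34145646-34152419), and whether their rises are separate was not tested.

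Among the 12 lower genes, Chia1, Per1 and Sgk1 are described above. Erdr1 had the largest fall, from 8.12, 5.81, 10.5 and 9.98 CPM in WT-S to 0.505, 0.207, 0.78 and 0.087 CPM in WT-A (log2 -4.41, SE 0.38, adjusted p = 2.79e-05; 14 libraries -4.58, adjusted p = 0.000214). It lies in repeated sequence at chrX:170010526-170018797, and its counts are uncertain. Blm, a RecQ DNA helicase, was at 19.3, 58.4, 44.5 and 24.3 CPM and 9.28, 7.66, 6.9 and 6.57 CPM (log2 -2.27, SE 0.32, adjusted p = 0.00107; 14 libraries -2.12, adjusted p = 0.00868). Its 4 WT-A values were close together while those of WT-S spread more widely.

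Slc27a2, which activates long-chain fatty acids, was at 3.19, 9.08, 5.46 and 6.4 CPM in WT-S and 1.26, 0.931, 1.91 and 2.35 CPM in WT-A (log2 -1.92, SE 0.31, adjusted p = 0.00188; 14 libraries -2.46, adjusted p = 0.00259). Mug1, a secreted protease inhibitor of the alpha-2-macroglobulin family, was at 43.2, 111, 119.6 and 85.1 CPM and 19.9, 17.1, 32.7 and 29 CPM (log2 -1.87, SE 0.32, adjusted p = 0.0027; 14 libraries -2.28, adjusted p = 0.00531), and reads could be shared with its close paralog. Creg2, a secreted glycoprotein, was at 16.6, 21.2, 22.4 and 19.8 CPM and 6.03, 5.76, 6.51 and 9.09 CPM (log2 -1.55, SE 0.16, adjusted p = 0.00017; 14 libraries -1.76, adjusted p = 0.000258). Mid1, a microtubule-associated ubiquitin ligase, lies beside Erdr1 (chrX:169685199-169990798), and whether the 2 falls are separate was not tested. It was at 18.1, 24.9, 18.2 and 19.3 CPM and 7.43, 6.93, 7.14 and 8.87 CPM (log2 -1.41, adjusted p = 0.00209; 14 libraries -1.48, adjusted p = 0.00937).

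Nrn1, a membrane-anchored growth-promoting protein of neurons, went from 38.7 ± 6.54 to 15.6 ± 2.47 CPM (SD, n = 4; log2 -1.31, adjusted p = 0.000256; 14 libraries -1.15, adjusted p = 0.00247). Obp2a, a lipocalin that binds small lipophilic molecules, went from 5.14 ± 2.85 to 1.66 ± 0.0628 CPM (log2 -1.64, adjusted p = 0.00603; 14 libraries -1.66, adjusted p = 0.0319). Tmem267, a membrane protein, went from 5.34 ± 2.24 to 1.87 ± 0.796 CPM and was lowest in the GC-shifted pair (log2 -1.49, adjusted p = 0.00628; 14 libraries -1.08, adjusted p = 0.0412).

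**Figure D3:**
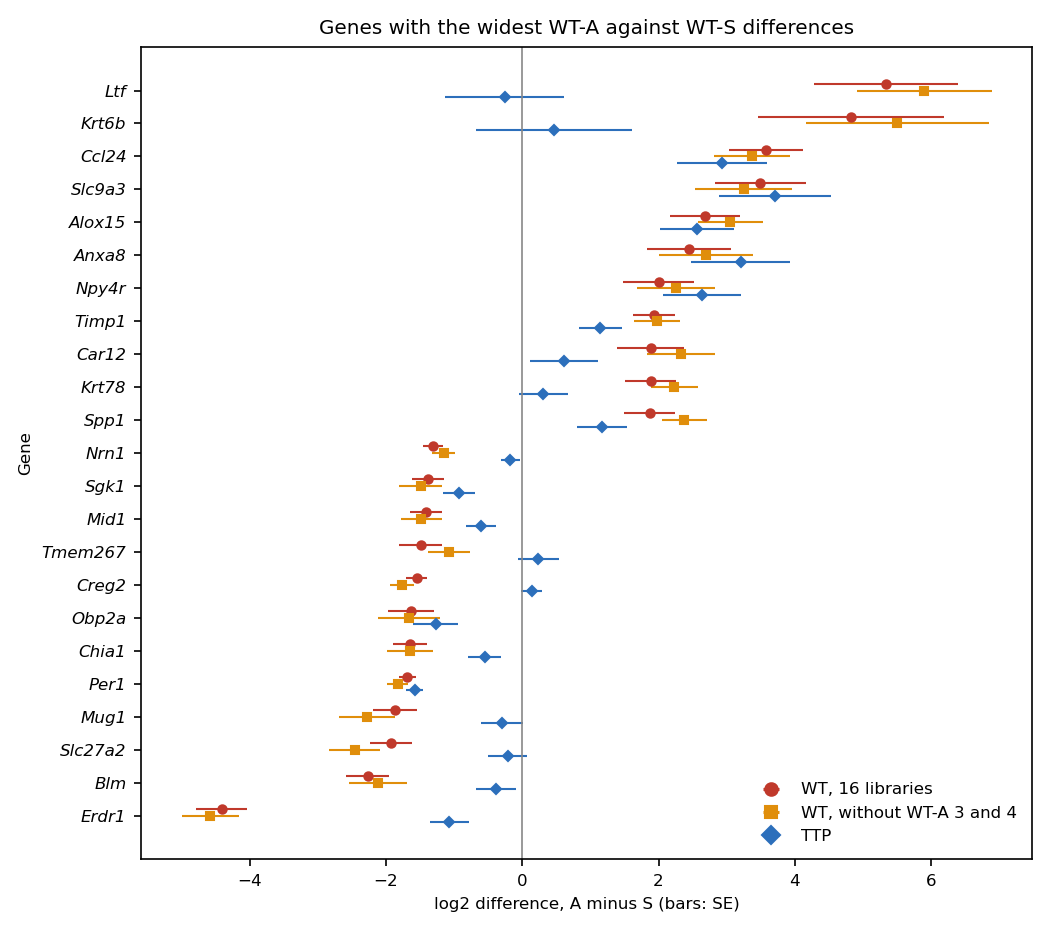
Log2 difference of A minus S (x axis) with its SE for 11 genes of large rise and the 12 of largest fall in WT-A (y axis). Circles are WT in 16 libraries, squares WT without WT-A 3 and 4, and diamonds TTPΔARE mice in 16 libraries. The circles run from 5.34 for Ltf to -4.41 for Erdr1, the squares stay on the same side, and the diamonds lie from 3.71 for Slc9a3 to -1.58 for Per1, at -1.07 for Erdr1, -0.26 for Ltf and 0.14 for Creg2. Of these genes only Erdr1 and Creg2 passed the test of the difference between genotypes.

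Several inflammatory transcripts of low level rose. Of 18 cytokine and chemokine genes tested, 7 were called higher (9.80% of all genes) and 1 lower (8.99%), and in 14 libraries 3 (4.83%) and 1 (5.68%; medians 0.35 and 0.25). Tnf, the inflammatory cytokine whose transcript tristetraprolin destabilises, had 3, 2, 2 and 2 counts in WT-S 1 to 4 and 15, 14, 24 and 11 in WT-A 1 to 4. The summed counts, scaled to depth, gave a ratio of 5.65 (95% Poisson interval 2.80 to 12.9, counting error only), and the gene was called (log2 2.44, adjusted p = 0.00337; 14 libraries 2.19, adjusted p = 0.0133). Il1rn, which encodes the antagonist of the interleukin-1 receptor, was at 1.68, 1.27, 1.67 and 1.64 CPM and 4.11, 10.9, 5.03 and 1.65 CPM (log2 1.8, SE 0.45, adjusted p = 0.0153; 14 libraries 2.27, adjusted p = 0.00486; leaving out WT-A 2 gave 1.21), with WT-A 4 within WT-S and an adjusted p of 0.053 without WT-S 2. Cxcl14, an epithelial chemokine, had a log2 of 0.62, adjusted p = 0.00761 (14 libraries 0.49, adjusted p = 0.056). Cxcl12, a stromal chemokine, was lower, with a log2 of -0.32, adjusted p = 0.0397 (14 libraries -0.49, adjusted p = 0.00922) but lost the call in 6 of 8 leave-one-out fits (adjusted p up to 0.136, without WT-S 2). Of the 8 cytokine genes not tested, Il6, Il17a and Ifng stayed at 6, 0 and 1 counts at most in a library. Summed over 4 libraries, the chemokine genes Cxcl2, Cxcl5 and Ccl5 had 1, 4 and 11 counts in WT-S and 18, 22 and 35 in WT-A, while Cxcl13 had 24 and 19 and Ccl20 9 and 1. The ratio for Cxcl2 was 14.3 (95% Poisson interval 2.26 to 596).

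Of 8 eosinophil and type 2 genes tested, 4 were called higher (9.80% of all genes) and none lower, and in 14 libraries 3 (4.83%) and none. Il13, the cytokine that drives alternative activation and mucous differentiation, had 4, 1, 1 and 2 counts in WT-S 1 to 4 and 21, 22, 31 and 19 in WT-A 1 to 4. The ratio of the summed counts was 9.24 (95% Poisson interval 4.50 to 22.0), with no overlap and a call in both fits (log2 3.12, adjusted p = 0.00115; 14 libraries 2.9, adjusted p = 0.00485; 3.75 without WT-S 1). Il5, the growth factor of eosinophils, had 0, 2, 6 and 2 counts against 10, 16, 13 and 9. It was called in 16 libraries (log2 1.89, adjusted p = 0.0274; 2.7 without WT-S 3) but not in 14 (1.91, adjusted p = 0.0772), and lost the call in 3 of 8 leave-one-out fits (adjusted p up to 0.0831, without WT-S 2). Retnla, a product of alternatively activated macrophages, was at 6.44, 0.891, 1.94 and 2.0 CPM and 9.53, 13.6, 17.7 and 5.22 CPM (log2 2.07, SE 0.54, adjusted p = 0.0175; 14 libraries 2.08, adjusted p = 0.0342; 2.85 without WT-S 1) and lost its call in 4 of 8 leave-one-out fits (adjusted p up to 0.060, without WT-A 3). Siglecf, a surface marker of eosinophils, overlapped between the groups (log2 0.53, adjusted p = 0.195; 14 libraries 0.87, adjusted p = 0.0611), Epx had no count in any WT library, and Ccr3, the receptor for Ccl24, summed to 6 counts in WT-S and 49 in WT-A, 30 of them in WT-A 2.

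Most macrophage genes were not called. Of 11 tested, 3 were called higher (9.80% of all genes), and in 14 libraries 1, Cd68 (4.83%), with medians of 0.21 and 0.024. When 1 library was left out the median was 0.077 without WT-A 3, 0.11 without WT-S 4, 0.33 without WT-S 2 and 0.36 without WT-A 1. Cd68, a lysosomal protein, was at 16, 11.2, 14.9 and 14.3 CPM in WT-S and 30.0, 29.3, 29 and 20.2 CPM in WT-A (log2 0.95, SE 0.14, adjusted p = 0.00147; 14 libraries 1.08, adjusted p = 0.00125). Adgre1, which encodes the marker F4/80, had a log2 of -0.12, adjusted p = 0.657 (14 libraries -0.31, adjusted p = 0.409). Csf1r and C1qc had 0.54, adjusted p = 0.0463 and 0.43, adjusted p = 0.0463, were not called in 14 libraries (0.24, adjusted p = 0.43 and 0.22, adjusted p = 0.381), and lost their calls with offsets for GC content and in 6 and 7 of 8 leave-one-out fits (adjusted p up to 0.161 and 0.156, without WT-A 3).

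All 8 genes of antigen presentation by MHC class II had a positive log2, and 7 were called in 16 libraries (9.80% of all genes called higher), but 1 in 14 (4.83%; medians 0.76 and 0.58). The list has a median GC content of 55.1%. H2-Ab1, which encodes a chain of the class II molecule, was at 63.7, 55, 62.5 and 58.7 CPM and 84.1, 112, 134 and 95.7 CPM without overlap (log2 0.83, SE 0.17, adjusted p = 0.00518; 14 libraries 0.71, adjusted p = 0.0252). Ciita, the master regulator of the class, had 1.09, adjusted p = 0.0147 (14 libraries 0.88, adjusted p = 0.0656; adjusted p = 0.0565 without WT-A 3). Cd74, the class II chaperone, had 0.65, adjusted p = 0.0265 (14 libraries 0.46, adjusted p = 0.158) and lost its call with offsets for GC content and in 3 of 8 leave-one-out fits (adjusted p up to 0.0968, without WT-A 3).

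T cell transcripts were rare: 6 of 10 in the table were tested, 3 were called higher (9.80% of all genes) and 2 in 14 libraries (4.83%), and the list summed to 4.65 to 6.14 CPM in WT-S and 5.31 to 10.2 CPM in WT-A. Foxp3, the transcription factor of regulatory T cells, had 4, 5, 5 and 7 counts in WT-S and 18, 15, 19 and 15 in WT-A (log2 1.32, SE 0.26, adjusted p = 0.00448; 14 libraries 1.2, adjusted p = 0.0306). Icos, a costimulatory receptor, had 8, 8, 11 and 9 counts against 20, 41, 36 and 23 (log2 1.39, SE 0.29, adjusted p = 0.00613; 14 libraries 1.3, adjusted p = 0.0286). Cd3e, a defining T cell gene, had at most 19 counts and was not tested. Summed over 4 libraries, the untested Cd3e, Cd3d, Cd8a and Cd8b1 had 23, 2, 8 and 1 counts in WT-S and 44, 11, 13 and 0 in WT-A. A rare gene can pass the count filter through the group where it is high, so the share called among tested members may be raised.

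Neutrophil genes were near the limit of detection. Of 9 listed genes, 2 were tested and both were called higher (9.80% of all genes), and in 14 libraries 1, Retnlg (4.83%). Csf3r, the receptor for G-CSF, went from 1.17 ± 0.35 to 2.67 ± 0.608 CPM (SD, n = 4; log2 1.17, adjusted p = 0.00791; 14 libraries 0.89, adjusted p = 0.0667). Retnlg had 4, 3, 0 and 2 counts against 17, 48, 45 and 3 (log2 3.21, adjusted p = 0.0234; 14 libraries 3.33, adjusted p = 0.0253) and lost its call in 4 of 8 leave-one-out fits (adjusted p up to 0.0709, without WT-A 3). S100a8 and S100a9, the defining transcripts, had at most 7 and 20 counts. Summed over 4 libraries, the untested S100a8, Mpo, Camp and Ly6g had 10, 4, 4 and 1 counts in WT-S and 10, 1, 3 and 0 in WT-A. S100a9, Cxcr2 and Ngp, also untested, had 13, 3 and 0 in WT-S and 41, 30 and 5 in WT-A. As for T cell genes, the count filter may raise the share called, and 2 tested genes do not show a rise of the list. Of 2 genes tested for B and plasma cells 1 was called lower (8.99% of all genes) and 1 higher (9.80%). Jchain was lower (-1.94, adjusted p = 0.0354) and Cd79b higher (1.43, adjusted p = 0.0395), and neither was called in 14 libraries (-2.04, adjusted p = 0.0709 and 1.37, adjusted p = 0.128). They lost their calls with offsets for GC content and in 5 and 6 of 8 leave-one-out fits, with an adjusted p of up to 0.131 (Jchain, log2 -1.19) without WT-S 1 and 0.106 without WT-S 2. Of 8 mast cell genes 1 was called higher in either fit, near the share of all genes (9.80%; 14 libraries 4.83%): Mcpt4 (log2 0.90, adjusted p = 0.0225; 14 libraries 1.1, adjusted p = 0.0196). Its call was lost in 3 of 8 leave-one-out fits (adjusted p up to 0.0745, without WT-S 2). Mcpt1 spread from 13.9 to 289 CPM over the 8 libraries (log2 1.61, adjusted p = 0.0901; 14 libraries 1.99, adjusted p = 0.083).

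Of 12 interferon-response genes 1 was called higher in either fit and none lower, near the share of all genes called higher (9.80%; 14 libraries 4.83%). It was Irf1 (log2 0.46, SE 0.11, adjusted p = 0.00983; 14 libraries 0.40, adjusted p = 0.0451). Isg15, a direct interferon target, overlapped between the groups (log2 0.37, adjusted p = 0.557; 14 libraries 0.33, adjusted p = 0.673). Of 13 antimicrobial and acute phase genes tested, 5 were called higher (9.80% of all genes) and none lower, also in 14 libraries (4.83%), with 4 shared and medians of 1.29 and 1.45. Beside Ltf they included Hamp, the iron-regulating hormone hepcidin, at 0.728, 0.382, 0.264 and 0.102 CPM in WT-S and 1.95, 2.31, 1.13 and 1.61 CPM in WT-A (log2 2.26, SE 0.47, adjusted p = 0.00608; 14 libraries 2.54, adjusted p = 0.00901). Cfb, complement factor B, had 0.72, adjusted p = 0.00896 (14 libraries 0.74, adjusted p = 0.027). Duox2 and its maturation factor Duoxa2, which form an epithelial source of hydrogen peroxide, were higher by 1.29, adjusted p = 0.0295 and 1.37, adjusted p = 0.0207 (14 libraries 1.4, adjusted p = 0.0601 and 1.45, adjusted p = 0.0486), with WT-S 1 the highest of WT-S in both. Duox2 lost the call in 14 libraries and in 4 of 8 leave-one-out fits (adjusted p up to 0.0729, without WT-A 3), and Duoxa2 in 2 of 8 leave-one-out fits (adjusted p up to 0.0555, without WT-S 4).

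**Figure D4:**
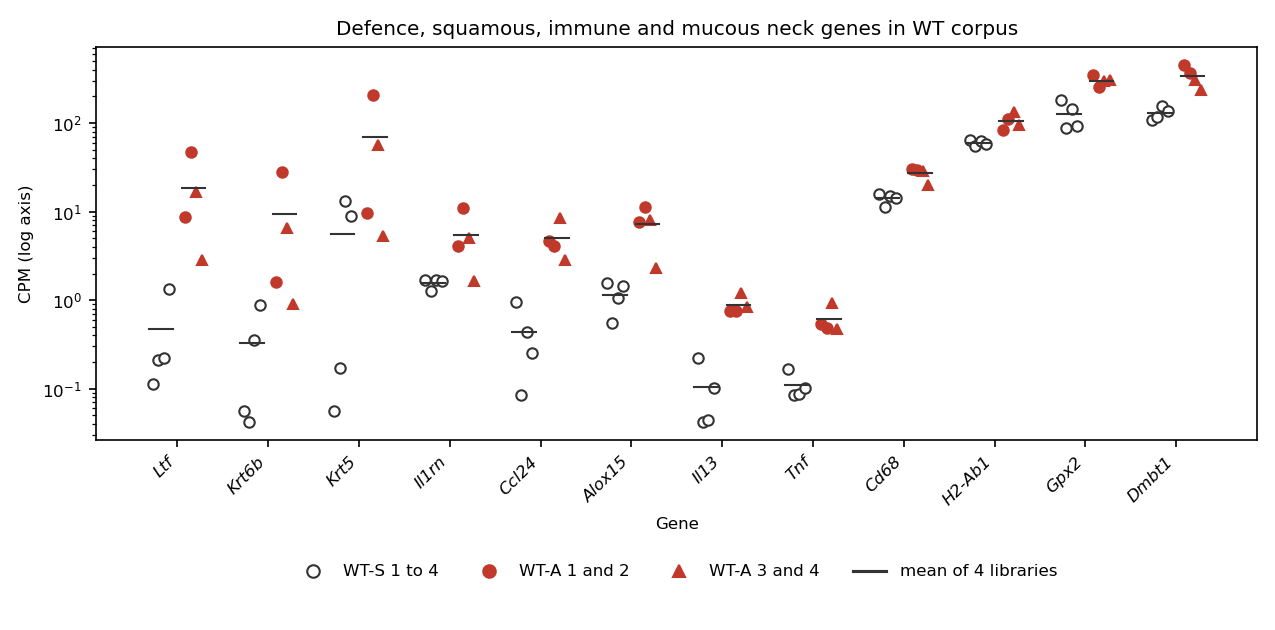
CPM on a log axis (y) of 12 genes of defence, squamous epithelium, immune cells and mucous neck cells (x). Open circles are WT-S 1 to 4, filled circles WT-A 1 and 2, triangles WT-A 3 and 4, and bars the mean of 4 libraries. Ltf, Krt6b, Krt5 and Il1rn are highest in WT-A 2, while Il13, Tnf and H2-Ab1 are highest in WT-A 3.

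Genes of mitosis rose in part, and no gene of DNA replication was called. Of 11 mitosis and G2/M genes tested, 7 were called higher (9.80% of all genes) and none lower, and the same 7 genes in 14 libraries (4.83%), with medians of 0.52 and 0.51. Birc5, survivin, was at 6.49, 10.1, 8.41 and 6.76 CPM in WT-S and 14.2, 13.7, 13.2 and 15 CPM in WT-A (log2 0.81, SE 0.15, adjusted p = 0.0031; 14 libraries 0.81, adjusted p = 0.0114). The cyclin B genes Ccnb1 and Ccnb2 had 0.78, adjusted p = 0.00444 and 0.64, adjusted p = 0.00383 (14 libraries 0.69, adjusted p = 0.0213 and 0.52, adjusted p = 0.0234). Cdc20, the activator of the anaphase-promoting complex, had 0.81, adjusted p = 0.00571 (14 libraries 0.51, adjusted p = 0.0444) and Mki67, the marker Ki-67, 0.43, adjusted p = 0.021 (14 libraries 0.48, adjusted p = 0.0449; adjusted p = 0.0661 without WT-S 4). Of 13 DNA replication genes, none was called in either fit, and the smallest p was that of Gins2 (log2 0.30, adjusted p = 0.178; 14 libraries 0.080, adjusted p = 0.82). Over the 13 genes the log2 ran from -0.12 to 0.30.

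Matrix genes were higher, by more in WT-A 3 and 4 than in WT-A 1 and 2. All 12 collagen and matrix genes tested were called higher in 16 libraries (9.80% of all genes) and 8 in 14 (4.83%), with medians of 0.60 and 0.35, and the list has a median GC content of 57.2%. Col1a2 was called neither in 14 libraries (0.13, adjusted p = 0.472) nor with offsets for GC content, and lost its call in 6 of 8 leave-one-out fits (adjusted p up to 0.125, without WT-A 3). Eln, elastin, was at 62.5, 75.8, 68.8 and 66.2 CPM in WT-S and 113, 112, 140.0 and 175 CPM in WT-A (log2 0.98, SE 0.14, adjusted p = 0.00115; 14 libraries 0.72, adjusted p = 0.00422). Sparc, a collagen-binding protein, was at 229, 232, 205 and 237 CPM and 287, 345, 442 and 430.3 CPM (log2 0.74, SE 0.11, adjusted p = 0.00154; 14 libraries 0.49, adjusted p = 0.00675). In both genes WT-A 1 and 2 already lay above WT-S, and WT-A 3 and 4 higher still. Col4a1 of the basement membrane had 0.53, adjusted p = 0.00208 (14 libraries 0.32, adjusted p = 0.00553) and Col1a1 of fibrillar collagen 0.76, adjusted p = 0.0037 (14 libraries 0.41, adjusted p = 0.019).

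Of 9 smooth muscle genes of the biopsy's deeper layers tested, 6 were called higher (9.80% of all genes) and 1 in 14 libraries (4.83%), Actg2 (log2 0.87, SE 0.17, adjusted p = 0.00434; 14 libraries 0.80, adjusted p = 0.0245). Their sum was 8098 to 9102 CPM in WT-S and 9433 to 11317 CPM in WT-A, without overlap. Its part in the difference of matrix genes was not tested. Acta2, a defining marker, had 0.36, adjusted p = 0.0173 (14 libraries 0.27, adjusted p = 0.126) and lost its call in 2 of 8 leave-one-out fits (adjusted p up to 0.0591, without WT-A 3). Adipose genes (none of 9 called) and pancreatic genes (none of 2 tested) showed no call, and haemoglobin genes had no count in any WT library. The adipose list summed to 207 to 253 CPM in WT-S and to 193, 180, 306 and 322 CPM in WT-A 1 to 4. WT-A 3 and 4 thus lay above WT-S, and WT-A 1 and 2 below. The part of adipose tissue in the difference of matrix genes was not tested.

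Of 15 fatty acid oxidation genes tested, 7 were called lower (8.99% of all genes) and none higher, and in 14 libraries 5 (5.68%) and none, while 8 were not called in 16. All 15 had a negative log2 in 16 libraries (medians -0.34 and -0.29). Beside Slc27a2 these included Cd36, the fatty acid transporter, at 124, 205, 165 and 173 CPM in WT-S and 109, 99, 74.9 and 84.8 CPM in WT-A (log2 -0.86, SE 0.14, adjusted p = 0.00202; 14 libraries -0.68, adjusted p = 0.0153), whose call was lost with offsets for GC content. Acsl1, an acyl-CoA synthetase, had -0.39, adjusted p = 0.00722 (14 libraries -0.52, adjusted p = 0.00289) and Etfdh, which passes electrons from fatty acid oxidation to the respiratory chain, -0.36, adjusted p = 0.00562 (14 libraries -0.29, adjusted p = 0.0345). Both were also lost with those offsets.

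Of 14 respiratory chain genes, 3 were called lower in 16 libraries (8.99% of all genes) and 10 in 14 (5.68%), with medians of -0.11 and -0.25, and -0.19 without WT-A 4. The differences were small: Ndufs1 of complex I went from 189.6 ± 6.61 to 140.1 ± 10.2 CPM (SD, n = 4; log2 -0.44, SE 0.060, adjusted p = 0.0010; 14 libraries -0.37, adjusted p = 0.00339), Sdha of complex II had -0.26, adjusted p = 0.00716 (14 libraries -0.29, adjusted p = 0.0102) and Uqcrc2 of complex III -0.29, adjusted p = 0.00649 (14 libraries -0.27, adjusted p = 0.026), lost with those offsets. The sum of this list was 6427 to 6583 CPM in WT-S and 5601, 5373, 5920.1 and 6930.5 CPM in WT-A 1 to 4. WT-A 4 thus lay above WT-S and the other 3 below, the order also seen for Atp4b.

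Stress lists were mixed. Of 18 genes of protein folding in the endoplasmic reticulum, 4 were called lower (8.99% of all genes) and none higher, and in 14 libraries 1 (5.68%), Herpud1, a factor of protein degradation there (log2 -0.48, SE 0.092, adjusted p = 0.00434; 14 libraries -0.61, adjusted p = 0.00333). Of 11 genes of the ATF4 and serine synthesis list, 2 were called higher (9.80% of all genes) and 1 lower (8.99%), and in 14 libraries 1 (4.83%) and 2 (5.68%). Atf5, a transcription factor of the amino acid and mitochondrial stress response, went from 24.6 ± 0.976 to 39.5 ± 3.5 CPM (SD, n = 4; log2 0.68, SE 0.091, adjusted p = 0.000889; 14 libraries 0.57, adjusted p = 0.00456), while Asns, asparagine synthetase, fell (log2 -0.47, SE 0.10, adjusted p = 0.00794; 14 libraries -0.49, adjusted p = 0.0182). Of the serine synthesis enzymes, Psat1 was called higher in 16 libraries only (log2 0.40, adjusted p = 0.0319; 14 libraries 0.38, adjusted p = 0.114) and lost the call in 5 of 8 leave-one-out fits (adjusted p up to 0.0749, without WT-S 4), and Phgdh was called lower in 14 only (-0.24, adjusted p = 0.378; -0.65, adjusted p = 0.0367). Of 12 NRF2 and glutathione genes 3 were called higher (9.80% of all genes): Gpx2, Gss (0.33, adjusted p = 0.0192; 14 libraries 0.28, adjusted p = 0.0957) and Hmox1 (0.68, adjusted p = 0.048; 0.68, adjusted p = 0.131). In 14 libraries Gpx2 was called higher and Gsta4 lower (-0.33, adjusted p = 0.0499). Gss lost the call without WT-S 2 (adjusted p = 0.0564) and Hmox1 with offsets for GC content and in 6 of 8 leave-one-out fits (adjusted p up to 0.142, without WT-S 2). Nqo1, a defining NRF2 target, was not called (log2 -0.72, adjusted p = 0.0529; 14 libraries -0.82, adjusted p = 0.113). Of 15 immediate early genes 2 were called higher (9.80% of all genes) and 1 in 14 libraries (4.83%). Egr2 (log2 1.66, SE 0.31, adjusted p = 0.00384; 14 libraries 1.39, adjusted p = 0.0215) and Atf3 (log2 0.60, adjusted p = 0.0318; 14 libraries 0.71, adjusted p = 0.0502) were higher. The call of Atf3 was lost with those offsets and in 4 of 8 leave-one-out fits (adjusted p up to 0.098, without WT-S 2). Fos and Egr1, the classical members, had 0.0051, adjusted p = 0.993 and 0.20, adjusted p = 0.71 (14 libraries -0.11, adjusted p = 0.907 and 0.0017, adjusted p = 0.999).

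**Figure D5:**
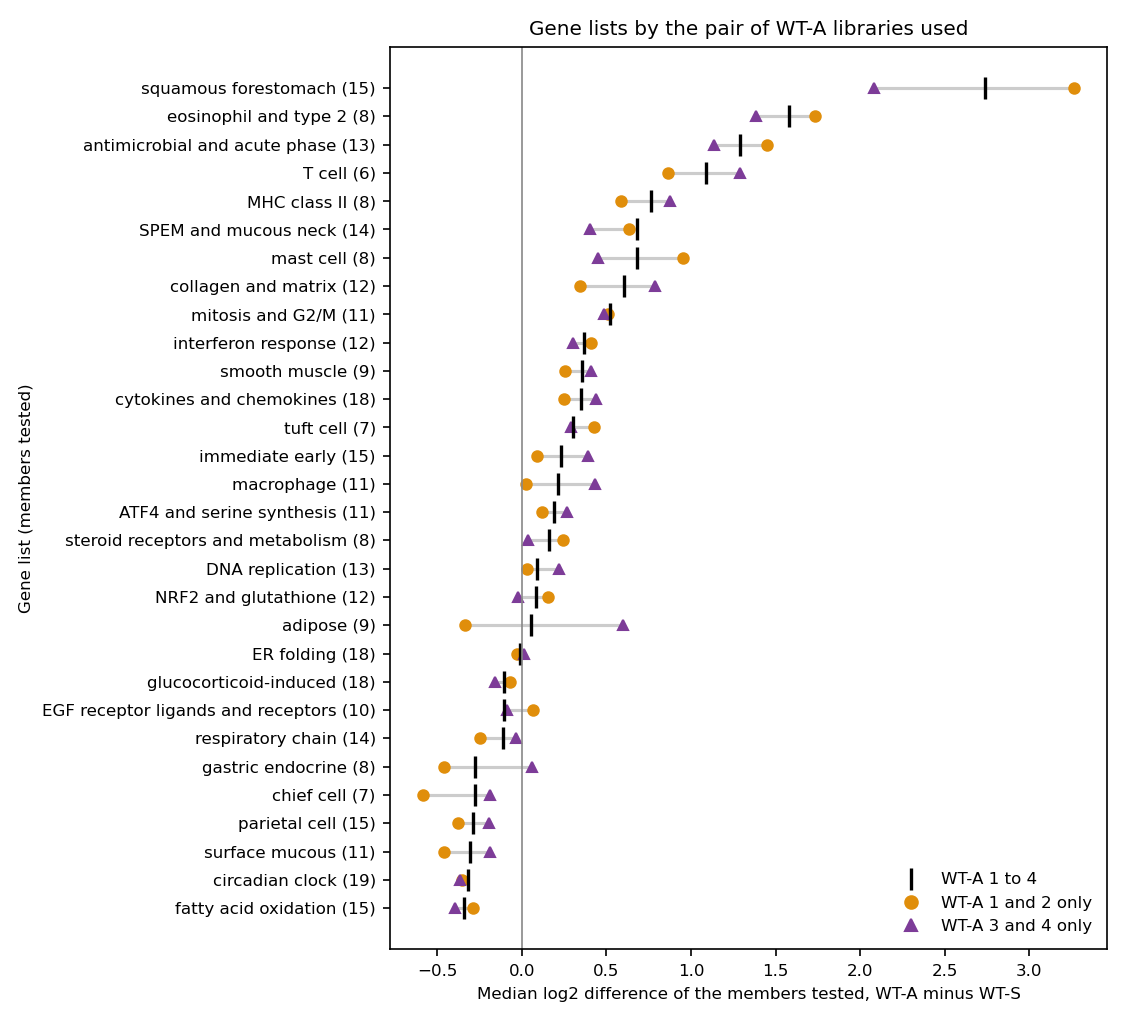
Median log2 difference of WT-A minus WT-S (x axis) for each gene list with at least 6 members tested (y axis, number tested in brackets). Vertical ticks use all 4 WT-A libraries, circles WT-A 1 and 2 only and triangles WT-A 3 and 4 only, against the same 4 WT-S libraries. The squamous list lies highest (2.74, and 1.59 without WT-A 2) and fatty acid oxidation lowest (-0.34), and the medians of the endocrine, EGF receptor, ER folding, NRF2 and adipose lists lie on different sides of 0 for the 2 pairs.

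The same treatment was read in TTPΔARE mice to see where the response of WT differed. There 446 genes (2.90%) were called, and the test of the difference itself, the genotype by treatment interaction, called 9 genes of 15385 (0.0585%) in 16 libraries and 44 (0.286%) in 14, while 2344 (15.2%) had an unadjusted p under 0.05. This small count moved with single libraries, to 231 without WT-A 1, 42 without WT-A 4, 25 without WT-S 1, 4 without WT-A 3 or WT-S 2, and 2 without WT-S 3 or WT-S 4. Among glucocorticoid-induced, steroid and clock genes the difference between genotypes was not called in 16 libraries, and in 14 it was called for Pdk4 alone (adjusted p = 0.0317; 0.133 in 16), with a log2 of -0.27 in WT in 14 libraries and -1.36 in TTPΔARE. In 16 libraries Per1 had a log2 of -1.58 in TTPΔARE (WT minus TTPΔARE -0.11, SE 0.17, adjusted p = 0.772), Tsc22d3 -0.86 (0.022, SE 0.12, adjusted p = 0.945) and Ciart -1.11 (0.044, SE 0.25, adjusted p = 0.943). Fkbp5 and Zbtb16 had -1.41 and -2.56 there, further from 0 than in WT, with a difference of 0.68, SE 0.24, adjusted p = 0.221 and 1.38, SE 0.43, adjusted p = 0.179. In 14 libraries these 5 adjusted p-values were 0.601, 0.899, 0.899, 0.334 and 0.309. Of the glucocorticoid-induced list 8 members were called lower in TTPΔARE (1.35% of all genes tested) and none higher (1.55%).

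All 9 genes that differed between genotypes changed in WT and had a smaller or opposite value in TTPΔARE mice. None of the 9 was called in TTPΔARE mice. Of 5 genes that fell in WT-A, Ero1lb, an oxidase of disulfide formation in secretory cells, had -0.80 (14 libraries -0.75) in WT and 0.10 in TTPΔARE (interaction -0.91, SE 0.11, adjusted p = 0.00634). Creg2 had -1.55 and 0.14 (interaction -1.69, SE 0.22, adjusted p = 0.00795). Nucb2, the precursor of the satiety peptide nesfatin, had -0.99 (14 libraries -0.87) and -0.00034 (interaction -0.99, SE 0.15, adjusted p = 0.0284). Aldh1l2, a mitochondrial enzyme of folate metabolism, had -0.93 (14 libraries -1.11) and 0.30 (interaction -1.23, SE 0.21, adjusted p = 0.0415), and Erdr1 -4.41 and -1.07 (interaction -3.34, SE 0.48, adjusted p = 0.0188).

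Of the 4 that rose in WT-A, Dmbt1 had 1.39 in WT and -0.61 in TTPΔARE (interaction 2.0, SE 0.33, adjusted p = 0.035). Krt7, a keratin of simple ductal epithelium, was at 11.9, 17.8, 19.7 and 18.1 CPM in WT-S and 45.4, 61.2, 38 and 31.9 CPM in WT-A, with a log2 of 1.39 (14 libraries 1.66) in WT and -0.40 in TTPΔARE (interaction 1.79, SE 0.30, adjusted p = 0.0415). Eln had 0.98 and -0.26 (interaction 1.24, SE 0.20, adjusted p = 0.035), and Lbh, a transcriptional cofactor, 0.68 (14 libraries 0.66) and 0.017 (interaction 0.66, SE 0.11, adjusted p = 0.035). The interaction was called for all 9 in 14 libraries as well. With the replicate number as a block, the calls of Nucb2, Krt7, Eln, Dmbt1 and Aldh1l2 were lost (adjusted p = 0.055, 0.0586, 0.0608, 0.0711 and 0.0933). In the 8 leave-one-out fits those of Creg2 and Ero1lb were always called and the other 7 were not (highest adjusted p = 0.106, for Aldh1l2 without WT-S 3). For the mitosis list, with 7 of 11 called higher in WT, and the matrix list, with 12 of 12, the medians in TTPΔARE were 0.091 and 0.042 with no member called, but of these genes only Eln passed the test of the difference, in 16 and in 14 libraries.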

How the data were processed

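RNA from corpus biopsies was sequenced from libraries made with an Illumina TruSeq RNA kit, per the labels' protocols. The deposited table holds raw counts per gene symbol for 24964 genes in 16 libraries, with 0 columns of no sample. The submitters' processing notes name mm10, STAR 2.7.0f, featureCounts, Subread 1.6.4 and DESeq2, with no role or order, and strandedness and annotation are not given in the sources used here. Antisense and overlapping genes therefore cannot be told apart.

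Counts were fitted with edgeR 4.0.16 (R 4.3.3, legacy quasi-likelihood test, filterByExpr, TMM scaling, 1 mean per group) over all 16 libraries, and p-values were adjusted by Benjamini-Hochberg over 15385 genes. A gene of few counts can pass the filter through the group where it is high, so shares called in lists of rare transcripts may be raised. The fit was tested on simulated data. CPM are counts divided by TMM-scaled library totals. Log2 differences are fitted values, and fold changes are 2 to the power of these. Log2 CPM of single libraries take a prior count of 2. Transcript GC content came from GENCODE transcripts and gene coordinates from RefSeq, both for GRCm38. No 2 WT libraries of a group agreed within sampling noise. Alternatives used limma 3.58.1, DESeq2 1.42.0, other filters, loess offsets for GC content and leaving out libraries.

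Named genes were Zfp36, the 12 largest changes per direction that passed the criteria given in the text, and in each list the 4 of smallest p, a defining marker and those that ended a range. Immunoglobulin and T-cell receptor segments and unnamed gene models were passed over, and 1 gene is not reported here. Further members of the lists and the genes of the genotype difference were singled out after their values were seen. Members and lists were chosen with earlier results of these data known. Poisson intervals are exact at 95% and cover counting error only.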

Additional observations from a re-analysis of the deposited data

Results flagged for a closer look

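In 12 of 280 tests of a named gene in 1 WT group, the highest or lowest library lay far from the other 3. The ratio given is its gap to the nearest library over the range of the group, on log2 CPM. With such a rule chance flags about 1 in 20 groups, so 12 of 280 is no more than that. In WT-S 1, Nr3c1 (0.927; 70.9 CPM), Dbp (0.881; 68.2 CPM), Nr1d2 (0.830; 100.5 CPM), Per3 (0.863; 46.4 CPM) and Slc26a7 (0.863; 11.8 CPM) stood apart and were lowest of the group. In WT-S 4, Timp1 was lowest (0.900; 0.973 CPM), while Dpcr1 (0.904; 16110.3 CPM) and Foxp3 (0.902; 0.358 CPM) were highest. In WT-S 2, Il1rn was lowest (0.910; 1.27 CPM). In WT-A 2, Pou2f3 was highest (0.965; 7.62 CPM). In WT-A 4, Cd68 was lowest (0.911; 20.2 CPM) and Ccnb1 highest (0.865; 6.52 CPM).

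The response differed between genotypes, by the interaction test, in 9 genes. The log2 of WT minus TTPΔARE was -0.91 for Ero1lb, -1.69 for Creg2, -3.34 for Erdr1, -0.99 for Nucb2 and -1.23 for Aldh1l2. It was 1.24 for Eln, 0.66 for Lbh, 2.0 for Dmbt1 and 1.79 for Krt7.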

How the results depend on the processing

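The fit of all 16 libraries called 2891 genes (1508 higher, 1383 lower). Without WT-A 3 and WT-A 4 the count was 1617 (743 and 874), of which 1149 were among the 2891. Without WT-A 1 and WT-A 2 it was 6795 (3150 and 3645), with 2588 of the 2891 among them. The 8 WT libraries alone gave 612 (357 and 255), 609 of them shared, and a tested minimum log2 of 1 gave 2 (0 and 2). Leaving out 1 library gave 1252 to 4982 (664 to 2250 higher, 567 to 2732 lower). The causes were not tested beyond the number of libraries and the threshold. Other scalings, filters and tests gave 2524 to 3517, among them the newer edgeR fit (2966, chosen after seeing the data) and offsets for GC content (2524, of which 1663 were called in both and 1 with the opposite sign). The genotype difference, called for 9 genes, was called for 44 without WT-A 3 and WT-A 4 and for 2 to 231 when 1 library was left out.

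Replicate numbers did not pair the WT libraries (correlations of deviations 0.33, -0.35, 0.33 and -0.034). With the replicate number as a block, 2853 genes were called (1414 higher, 1439 lower), without WT-A 3 and WT-A 4 also 1107 (511 and 596), and 4 genes differed between genotypes.

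Of 140 named genes 126 were called. Of these, 81 kept the call in all 8 fits that left out 1 library, 30 lost it in 14 libraries, 24 with GC offsets and 4 with the block, and none reversed. Genes named for the largest changes had to be called in 14 libraries, so none of them could be among the 30. The naming rule also favoured genes of small p, so these counts do not describe all called genes. Losses in the fit of the 8 WT libraries alone are not counted here. Only 2 genes, Per1 and Erdr1, kept the call in every setting, which includes the tested minimum log2 of 1. Isg15, not called, ran from -0.011 (reversed, without WT-A 3) to 0.68 when 1 library was left out, and Phgdh, not called, was at 0.079 without WT-A 1 and WT-A 2 (reversed). At a few counts per library, as for Tnf and Il13, depth limits the precision of the ratio.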
